A study of Mus musculus with 32 samples.

Results

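The last day of culture was followed in spleen B cells that lack ELOF1, from day 2.5 to day 3.5 after stimulation with IL-4 and LPS. The members are the 6 libraries of conditional Elof1 knockout cells (Elof1-cKO, here cKO) that the labels give as replicates 1 to 3 of day 3.5 and replicates 1 to 3 of day 2.5, out of 32 libraries in the series and 16 from spleen. The labels number them in 1 consecutive series of libraries together with 6 wild-type ones, and genes of the mouse were analysed, without those of the fly. Wild-type spleen B cells (WT) with the same stimulation, 3 libraries at day 3.5 and 3 at day 2.5, were set beside them. All 12 libraries come from mouse splenic B cells in culture, and RNA of Drosophila S2 cells was added to each in proportion to cell number. The series is about ELOF1 and damage to transcribed genes. Not given in the sources used here were what deletes Elof1, in which cells and from what age, the age of the mice, and whether replicates came from separate mice. The p-values below therefore measure the spread between these libraries, which may be technical.

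Resting B cells that meet LPS and IL-4 enter the cell cycle, and within days some of them become antibody-secreting plasmablasts. LPS acts through Toll-like receptor 4, and IL-4 acts through STAT6 to open the Ighg1 and Ighe constant regions to transcription, which precedes class switching to IgG1 and IgE. The turn to secretion is driven by Blimp-1 (Prdm1), IRF4 and XBP1, while PAX5 and BACH2 hold the B cell state. ELOF1 travels with elongating RNA polymerase II and takes part in transcription-coupled repair.

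The deposited values are counts of reads per gene. The 6 cKO libraries held 11743321, 12643614 and 11590005 mouse counts at day 3.5, against 10936333, 12886973 and 13257726 at day 2.5, and the 12 libraries together ranged from 10160465 to 14967558. Of 43345 mouse genes, 12851 passed the filter on low counts and were tested with edgeR's quasi-likelihood test, with Benjamini-Hochberg adjusted p below 0.05 as the threshold for a call. Levels are CPM, counts relative to the library total after TMM scaling, given for replicates 1, 2 and 3 in that order, and fold changes are log2, day 3.5 over day 2.5, with the standard error (SE). "Rose" and "fell" are used of genes that passed the threshold. The B cell markers Cd22 and Cd79b were high in all 6 libraries, Cd22 at 747 to 866 CPM and Cd79b at 859.8 to 1135 CPM. On the plasma cell side Xbp1 was at 356 to 559 CPM, Irf4 at 201 to 283 CPM and Prdm1 at 33.4 to 49.5 CPM. Jchain was at 25.8 to 320 CPM and Sdc1 at 5.18 to 18.3 CPM, while Tnfrsf17, the receptor BCMA, was at 0 to 0.175 CPM. Markers of T cells, granulocytes and red cells were at or near 0, with Cd3e at 0 to 0.151 CPM and S100a8 and Hba-a1 at 0. Thy1, known mainly as a T cell marker, made up most of the T and NK cell list, which summed to 316 to 407 CPM at day 3.5, against 237 to 287 CPM at day 2.5. Of the 18 members of that list in the table, 4 were tested and Thy1 was the only call (0.50 ± 0.10, adjusted p = 0.0029). Csf3r, the G-CSF receptor, rose too (1.84 ± 0.38) as the only tested member of 12 neutrophil markers, which summed to 2.45 to 3.17 CPM at day 3.5, against 0.555 to 1.03 CPM at day 2.5. Of the dendritic cell list, at 221.8 to 241 CPM, against 200.1 to 213.3 CPM, 1 of 4 tested genes rose, Zbtb46 (1.12 ± 0.18). Of the stroma and endothelium list, at 32.9 to 41.6 CPM, against 41.7 to 53.1 CPM, 1 of 2 fell, Pecam1 (-0.41 ± 0.13). The macrophage list summed to 8.15 to 14.6 CPM, against 9.25 to 14.2 CPM, with C1qa at 0 and no call among 4 tested genes, and the erythroid, platelet and mast cell lists to at most 3.63 CPM. The part of other cells in the results was not tested.

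The targeted gene was low in all 6 cKO libraries on both days. Elof1 was at 7.63, 4.66 and 5.35 CPM at day 3.5, against 5.74, 5.48 and 4.38 CPM at day 2.5, with overlapping groups (0.18 ± 0.37, adjusted p = 0.82). In WT cells it was at 20.8, 21.3 and 40.8 CPM at day 3.5, against 26.7, 20.8 and 54.9 CPM at day 2.5, so that each of the cKO libraries lay below each of the WT libraries.

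In the cKO cells 1678 of the 12851 genes changed over this day (13.1%), 1101 higher (8.57%) and 577 lower (4.49%) at day 3.5. Of these, 397 changed 2-fold or more, 358 higher and 39 lower. The counts of called list members below are to be read beside the shares over all genes, 8.57% higher and 4.49% lower. Genes of the secretory plasma cell program, of immunoglobulin, of the p53 response, of the lysosome and of the immediate-early class were among those that rose, and histone, mitosis, ribosome biogenesis, glycolysis and interferon-stimulated genes among those that fell. The median log2 fold change of all tested genes was 0.01, and in 3812 genes (29.7%) the 2 days did not overlap, 2227 higher (17.3%) and 1585 lower (12.3%). The replicate 3 libraries of both days stood apart from the others of their group in the second principal component. Without both cKO replicate 3 libraries 1087 genes were called, 951 of them among the 1678. Leaving out single libraries gave 995 calls without replicate 3 of day 3.5, 1011 without replicate 1 of day 2.5 and 1030 without replicate 2 of day 2.5. A fit with all 16 spleen libraries and a term for the series of library numbers gave 455. With the fly counts as the scale in place of the mouse counts, 272 genes were called (2.12%), 161 higher (1.25%) and 111 lower (0.864%), and the median of all genes moved by -0.26 to -0.25. Fly RNA was added per cell, so that this scaling is per cell and the main one is relative to the other mouse genes.

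The fly scaling rests on a ratio that varied between libraries. Fly counts were 6.89%, 5.32% and 8.39% of the mouse counts at day 3.5, against 4.78%, 5.57% and 6.36% at day 2.5, with overlapping groups. On the log2 scale the fly share differed by 0.29 (exact 2-sided permutation test, p = 0.3, adjusted p = 0.3 over 2 ratios tested), where 3 against 3 libraries cannot give a p below 0.1. In bulk RNA, fewer cells of a type and less RNA per cell cannot be told apart.

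**Figure D1:**
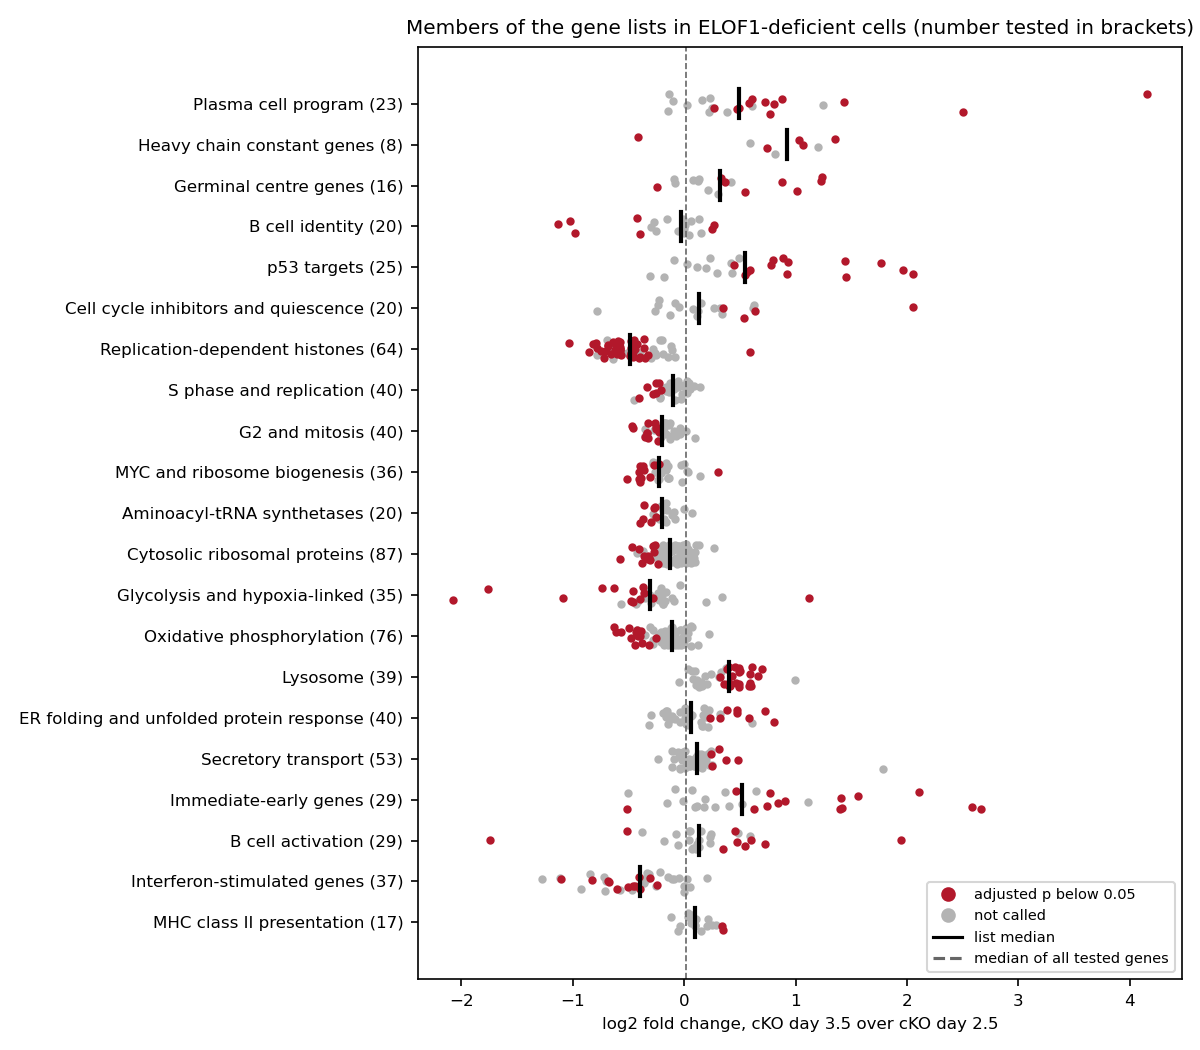
Each point is a tested gene of a list, placed by its log2 fold change in cKO cells (day 3.5 over day 2.5, horizontal axis), in red where it passed the test, with the list median as a black bar and the median of all tested genes as a dashed line. Most histone genes lie left of the dashed line and most lysosome genes right of it, and the plasma cell list reaches a log2 fold change of 4.16 (Cd28).

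Of the heavy chain genes Ighg1, Ighe, Ighg2b and Ighm rose. Ighg1, the constant region of IgG1 (chromosome 12, 113325240 to 113330523, minus strand, mm10), was at 959, 982 and 1195 CPM at day 3.5, against 461, 489 and 546 CPM at day 2.5. All 3 later libraries lay above all 3 earlier ones (1.07 ± 0.13, adjusted p = 6.4e-05). Ighe, of IgE, was at 62.7, 74.8 and 80.7 CPM at day 3.5, against 35.2, 38.1 and 33.9 CPM at day 2.5, again without overlap (1.03 ± 0.16, adjusted p = 0.00033). Ighg2b, whose reads may in part be shared with the related Ighg2c, rose by 1.36 ± 0.29 and Ighm by 0.74 ± 0.19. The call of Ighm was lost without replicate 1 (adjusted p = 0.08) or 2 (0.066) of day 2.5 or replicate 3 of day 3.5 (0.088). It was also lost with DESeq2 (0.069), with fly scaling (0.19), with all 16 libraries (0.11) and without both replicate 3 libraries (0.068). Ighd, of the IgD that mature naive B cells carry, fell by 0.42 (SE 0.12). Its call was lost without replicate 3 of day 2.5 (adjusted p = 0.13) or replicate 1 (0.085) or 2 (0.087) of day 3.5. Fly scaling (0.13) and all 16 libraries (0.11) lost it too. With all 16 libraries the calls of Ighe (0.33) and Ighg2b (0.095) were also lost, and with fly scaling that of Ighe (0.083). The other isotype genes Ighg3 (0.59 ± 0.24), Ighg2c (0.81 ± 0.54) and Igha (1.20 ± 0.40) did not pass the test. So 4 of the 8 tested heavy chain genes rose and 1 fell, with a list median of 0.92, and with fly scaling 2 were called higher and none lower. Of the light chains, Igkc was at 2539, 2864 and 3657 CPM at day 3.5, against 1275, 1354 and 1754 CPM at day 2.5 (1.05 ± 0.20, adjusted p = 0.0022), and Iglc2 rose by 0.49 ± 0.10, with reads possibly shared among the lambda genes. Counts per gene do not separate switched transcripts from the germline transcripts that precede switching.

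Set against gene length, Ighm stayed the main isotype. It held 91.0% ± 0.323 of the counts per kb of the 8 heavy chain genes at day 3.5, against 92.2% ± 0.203 at day 2.5 (SD, n = 3 each). Ighg1 held 6.63% ± 0.249, against 5.35% ± 0.119, and Ighe 0.875% ± 0.0573, against 0.733% ± 0.105. The Ighg1 shares of the 2 days did not overlap in cKO cells. The log2 ratio of Ighg1 to Ighm counts was -3.32 ± 0.06 at day 3.5, against -3.65 ± 0.04 at day 2.5 (SD, n = 3 each), a difference of 0.33. Its exact 2-sided permutation test gave p = 0.1, the smallest that 3 against 3 libraries allow, and an adjusted p of 0.2. In WT cells the same ratio was -1.95 ± 0.24 at day 3.5, against -1.93 ± 0.15 at day 2.5, a difference of -0.02 (exact p = 1). Whether the day's change in the ratio differs between the genotypes was not tested.

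**Figure D2:**
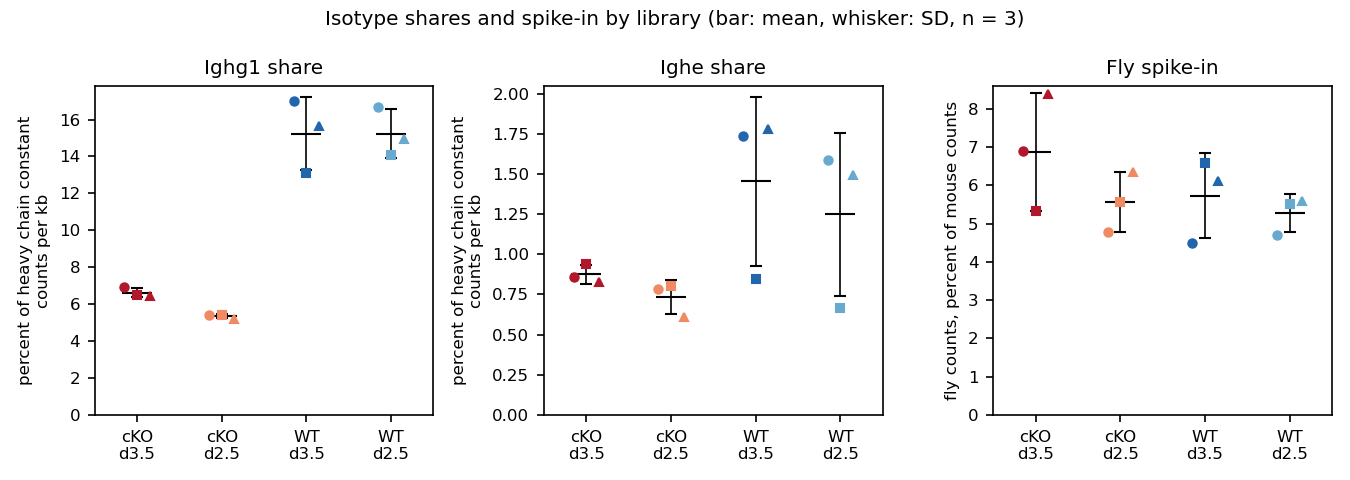
Points are single libraries (circle, square and triangle for replicates 1, 2 and 3) of cKO and WT cells at day 3.5 and day 2.5, with the mean as a bar and the SD as whiskers. The vertical axes give the share of Ighg1 and of Ighe among heavy chain constant counts per kb, and the fly counts as a percent of mouse counts. The Ighg1 share of the cKO libraries is 6.63% on average at day 3.5 and 5.35% at day 2.5, below all WT libraries.

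Several genes that mark the step towards plasma cells rose. Jchain, which links IgM and IgA into polymers, was at 167, 174 and 320.3 CPM at day 3.5, against 25.8, 34.5 and 55.5 CPM at day 2.5, and all later libraries lay above all earlier ones (2.50 ± 0.34, adjusted p = 0.00012). Sdc1, the plasma cell surface marker CD138, was at 17.1, 15.2 and 18.3 CPM at day 3.5, against 5.18, 7.71 and 5.74 CPM at day 2.5, also without overlap (1.44 ± 0.18, adjusted p = 5.5e-05). Xbp1, the transcription factor of the secretory state, was at 516, 519 and 559 CPM at day 3.5, against 356, 381 and 411 CPM at day 2.5 (0.47 ± 0.11, adjusted p = 0.0078), and without replicate 1 of day 2.5 its adjusted p was 0.058. Cd28, a costimulatory receptor that plasma cells also carry, was at 7.21, 5.61 and 8.15 CPM at day 3.5, against 0.278, 0.318 and 0.529 CPM at day 2.5 (4.16 ± 0.29, adjusted p = 2.7e-07).

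Of the 23 tested genes of the plasma cell list, 12 rose and none fell, with a median log2 fold change of 0.49. Among the others that rose were Mzb1, a chaperone of immunoglobulin assembly (0.80 ± 0.12), Edem1, which removes misfolded glycoproteins (0.72 ± 0.09), and Ell2, the elongation factor that favours secretory Igh mRNA (0.61 ± 0.08). Of the regulators, Prdm1 was at 38.3, 48.5 and 49.5 CPM at day 3.5, against 33.6, 37.6 and 33.4 CPM at day 2.5, without overlap but short of the threshold (0.38 ± 0.20, adjusted p = 0.25), and Irf4 was at 0.23 ± 0.09 on the same log2 scale (adjusted p = 0.12). Without the replicate 3 libraries 10 of the 23 were called higher. With fly scaling 3 were, and the median was 0.21, against -0.25 for all genes.

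**Figure D3:**
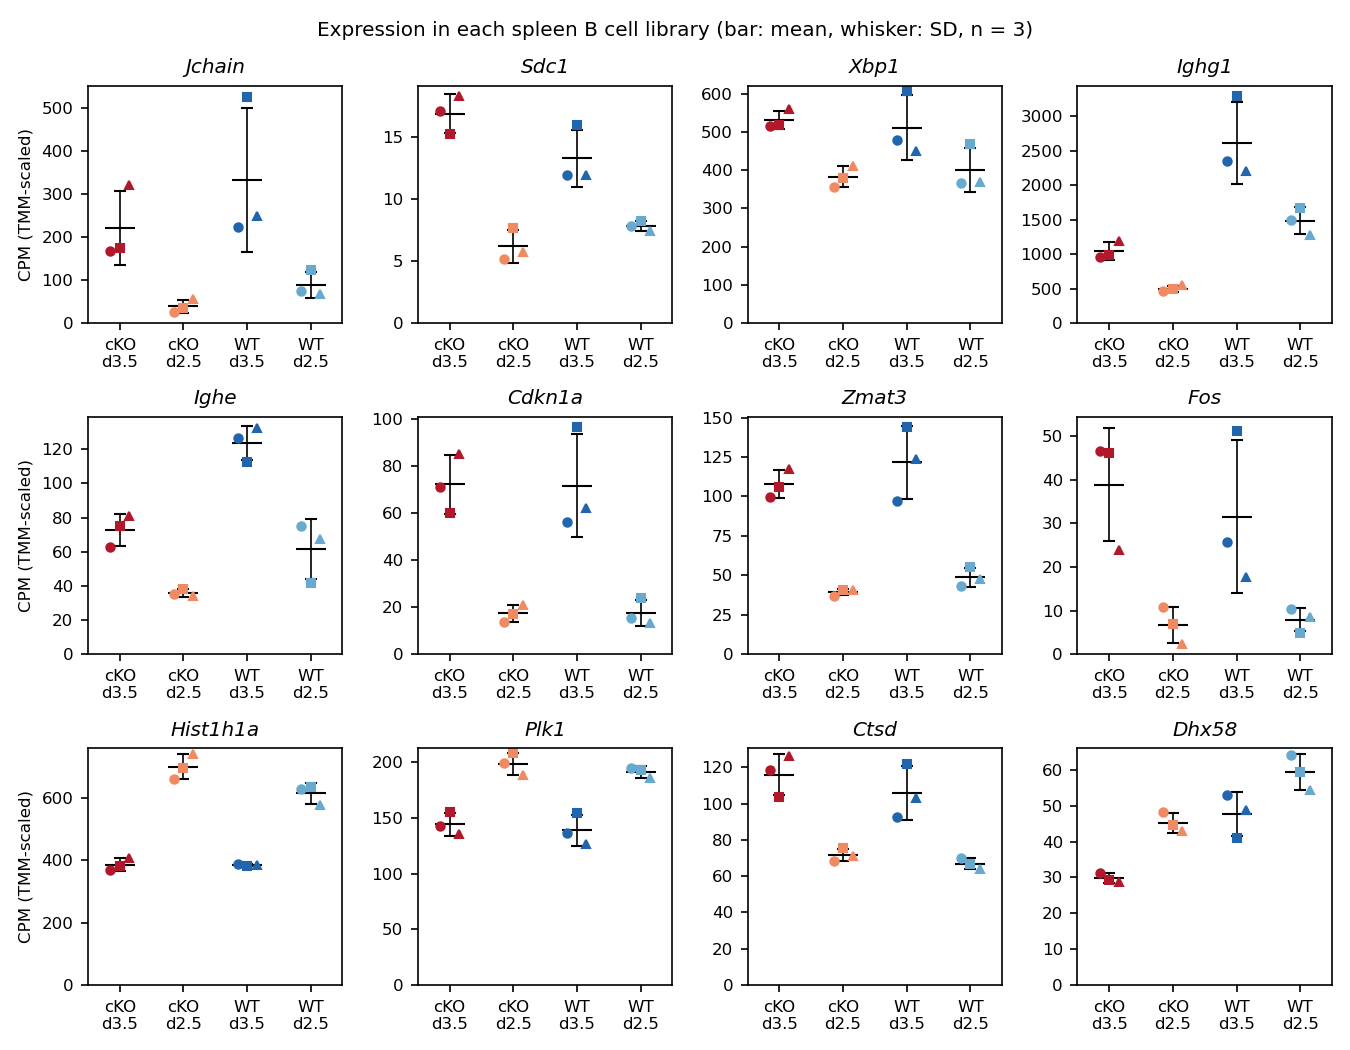
CPM after TMM scaling (vertical axes, linear from 0) of 12 genes in each library of cKO and WT cells at day 3.5 and day 2.5; circle, square and triangle are replicates 1, 2 and 3, bars are means and whiskers SDs (n = 3). In the cKO libraries all values of the 12 genes at day 3.5 lie on one side of those at day 2.5, as for Jchain, with its lowest value of 167 CPM at day 3.5 and its highest of 55.5 CPM at day 2.5.

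The genes that hold the B cell state fell in part. Pax5, the lineage factor, was at 244, 258 and 291 CPM at day 3.5, against 329.9, 333 and 379 CPM at day 2.5, without overlap (-0.39 ± 0.09, adjusted p = 0.0054), and Bach2, which delays plasma cell differentiation, was at 116, 147 and 103 CPM at day 3.5, against 159, 169 and 165 CPM at day 2.5 (-0.43 ± 0.12, adjusted p = 0.019). Without replicate 2 of day 2.5, or replicate 1 or 3 of day 3.5, Bach2 had an adjusted p of 0.056, 0.053 and 0.088. Bank1, a B cell scaffold protein (-1.02 ± 0.12), Cr2, the complement receptor CD21 (-1.13 ± 0.25), and the ectoenzyme gene Cd38 (-0.98 ± 0.23) fell too. Of 20 tested identity genes 5 fell and 2 rose, and the median was -0.03, near that of all genes. The 2 that rose, Cd37 and Pou2af1, changed by 0.25 and 0.26 on the log2 scale and were at -0.03 and -0.01 with fly scaling. Cd22 (-0.06) and Cd79a (-0.01), named as defining B cell genes, were not called.

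Genes of other B cell fates did not move as 1 block. Of 18 memory and atypical B cell genes 4 rose and 4 fell. Fcrl5, an Fc receptor-like protein, was at 27.9, 33.0 and 25.9 CPM at day 3.5, against 60.05, 65.6 and 60.6 CPM at day 2.5, less than the lowest earlier library in all later ones (-1.10 ± 0.11, adjusted p = 6.2e-06). Zbtb32, a repressor found in activated and memory B cells, fell to 163, 167 and 165 CPM at day 3.5, against 253, 264 and 241 CPM at day 2.5 (-0.61 ± 0.07, adjusted p = 3.8e-05). Cd44, the hyaluronan receptor of activated lymphocytes, rose (0.73 ± 0.08). Of 16 germinal centre genes 7 rose, among them the receptor gene S1pr2 (1.24 ± 0.23), and Ezh2, the Polycomb methyltransferase, fell (-0.24 ± 0.07). Without the replicate 3 libraries 3 of the 16 rose and none fell, and with fly scaling none was called. Bcl6, the germinal centre regulator, overlapped between the days (0.31 ± 0.19, adjusted p = 0.34).

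Among surface molecules that meet T cells, 7 of 23 tested costimulatory and coinhibitory genes rose and 2 fell. Cd80, a ligand of CD28, was at 2.66, 3.55 and 4.29 CPM at day 3.5, against 0.925, 0.397 and 1.36 CPM at day 2.5, low on both days but without overlap (1.95 ± 0.39, adjusted p = 0.003). Cd86, its partner ligand, rose by 0.46 ± 0.10, and Vsir, a coinhibitory molecule, by 0.81 ± 0.15. Icosl, the ligand of ICOS, was at 0.515, 0.711 and 0.614 CPM at day 3.5, against 2.22, 1.99 and 2.04 CPM at day 2.5 (-1.74 ± 0.39, adjusted p = 0.0066), and Lgals9, a galectin, fell as well (-0.65 ± 0.10). Syk, the kinase next to the antigen receptor, was at 196, 204 and 225.6 CPM at day 3.5, against 305, 291 and 348 CPM at day 2.5, with all later libraries below the earlier ones (-0.59 ± 0.08, adjusted p = 0.00012). It was 1 of 5 that fell among 29 tested genes of antigen receptor signalling, where Cd81 was the 1 rise. Over all genes 4.49% were called lower and 8.57% higher. With fly scaling 1 of the 29 fell, and without the replicate 3 libraries 3 fell.

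Of 29 tested immediate-early genes, which mitogen signals switch on without new protein, 13 rose and 1 fell. Fos was at 46.7, 46.3 and 23.8 CPM at day 3.5, against 10.7, 6.83 and 2.34 CPM at day 2.5, and Fosb at 22.6, 24 and 15.1 CPM at day 3.5, against 3.42, 4.85 and 1.51 CPM at day 2.5. In both, replicate 3 was the lowest library of its day, and the days did not overlap (Fos 2.58 ± 0.42, adjusted p = 0.00063; Fosb 2.66 ± 0.37, adjusted p = 0.00014). Fosl2, a further AP-1 subunit, was at 16.5, 12.3 and 16.4 CPM at day 3.5, against 3.79, 5.64 and 5.74 CPM at day 2.5 (1.56 ± 0.18, adjusted p = 2.5e-05), and Egr2, a target of antigen receptor signals, at 84.0, 72.0 and 56.9 CPM at day 3.5, against 27.9, 24.8 and 28.2 CPM at day 2.5 (1.40 ± 0.19, adjusted p = 0.00013). The median of the class was 0.52. The 1 that fell was Myc, the growth regulator, at 129, 122 and 98.4 CPM at day 3.5, against 157, 163 and 181 CPM at day 2.5 (-0.52 ± 0.12, adjusted p = 0.0072). With fly scaling 7 were called higher and none lower, and without the replicate 3 libraries 10 and none.

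Targets of p53 were among the genes that rose. Cdkn1a, the cell cycle inhibitor p21 (chromosome 17, 29090979 to 29100722, plus strand, mm10), was at 71.1, 60.1 and 85.1 CPM at day 3.5, against 13.8, 17.1 and 20.9 CPM at day 2.5 (2.06 ± 0.22, adjusted p = 1.0e-05). Zmat3, an RNA-binding p53 target, was at 99.7, 106 and 118 CPM at day 3.5, against 36.8, 40.5 and 40.7 CPM at day 2.5 (1.45 ± 0.12, adjusted p = 8.7e-07). Phlda3, an inhibitor of AKT signalling, was at 27.2, 21.4 and 35.8 CPM at day 3.5, against 5.92, 7.07 and 8.54 CPM at day 2.5 (1.96 ± 0.25, adjusted p = 8.6e-05), and Plk2, a stress-induced kinase, at 13.7, 14.5 and 15.1 CPM at day 3.5, against 3.70, 3.89 and 5.06 CPM at day 2.5 (1.77 ± 0.22, adjusted p = 7.2e-05). None of these overlapped between the days.

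Of 25 tested p53 targets 14 rose and none fell, with a median of 0.54. Among the others were Trp53inp1 (1.44 ± 0.20), Ccng1 (0.93 ± 0.13), a cyclin, and Sesn2 (0.92 ± 0.13), a stress-induced sestrin. Mdm2, the p53 ligase, was not called (0.23 ± 0.09). The count was 13 without the replicate 3 libraries and 5 with fly scaling, where the median was 0.27. Death genes of the BCL2 family that p53 can induce were part of this, Bbc3 (PUMA) at 0.78 ± 0.13 and Pmaip1 (NOXA) at 0.89 ± 0.15. Outside the p53 list Bcl2l11, the death activator BIM, was at 370.2, 392 and 403 CPM at day 3.5, against 202, 223.9 and 245 CPM at day 2.5 (0.80 ± 0.08, adjusted p = 3.6e-06), and Bcl2l1, the survival protein BCL-XL, rose by 0.47 ± 0.07. In all 5 of 17 BCL2 family genes rose and none fell, and with fly scaling none was called.

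Most replication-dependent histone genes fell. These genes are expressed in S phase, when new DNA is packed, and their mRNAs end without a poly(A) tail, so that libraries made by ribosomal RNA depletion can hold them. Of 64 tested, 42 fell and 1 rose, with a median of -0.48. Hist1h1a, a linker histone, was at 369, 382 and 408 CPM at day 3.5, against 662, 697 and 742 CPM at day 2.5 (-0.86 ± 0.07, adjusted p = 8.5e-07), and Hist1h2bg, a core histone, at 179, 205 and 182 CPM at day 3.5, against 289.9, 303 and 317 CPM at day 2.5 (-0.69 ± 0.08, adjusted p = 3.0e-05). All later libraries of both lay below the earlier ones. By class, 5 of 5 replication-dependent H1, 11 of 19 H2A, 10 of 15 H2B, 6 of 12 H3 and 10 of 12 H4 genes fell. The gene that rose was H1f0, a linker histone of cells that leave the cycle (0.59 ± 0.15), which is not itself tied to replication. Without the replicate 3 libraries 44 fell, and with fly scaling 22 did. Near-identical copies may share reads, so the single genes are less certain than their number.

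Other cell cycle genes moved less. Of 40 G2 and mitosis genes 12 fell and none rose, with a median of -0.20. Plk1, the mitotic kinase, was at 144 ± 10 CPM at day 3.5, against 198 ± 9.91 CPM at day 2.5 (SD, n = 3 each), without overlap (-0.46 ± 0.08, adjusted p = 0.00087), and Bub1b, of the spindle checkpoint, fell by 0.34 (SE 0.07). Of 40 S phase genes 7 fell and none rose, with a median of -0.10, among them Dut, which clears dUTP (-0.40 ± 0.09), and Tk1, thymidine kinase (-0.33 ± 0.08). Mki67, the proliferation marker, was at 660.1, 993 and 728 CPM at day 3.5, against 883, 842 and 1024 CPM at day 2.5, with overlap (-0.21 ± 0.12, adjusted p = 0.29). With fly scaling no gene of either list was called. Without the replicate 3 libraries 5 mitosis and 6 S phase genes fell.

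Some genes of cell growth fell by small amounts. Of 36 genes of MYC targets and ribosome biogenesis 11 fell and 1 rose, with a median of -0.23. Npm1, nucleophosmin, was at 900.2, 948 and 863 CPM at day 3.5, against 1200, 1174 and 1191 CPM at day 2.5, without overlap (-0.39 ± 0.07, adjusted p = 0.0011). Nolc1, a nucleolar protein, fell by 0.40 (SE 0.07). The 1 that rose was Odc1, of polyamine synthesis (0.30 ± 0.08), which without replicate 1 of day 3.5 was at 0.18 (adjusted p = 0.2). Of 20 aminoacyl-tRNA synthetases 7 fell and none rose (-0.20), and of 87 cytosolic ribosomal protein genes 15 fell and none rose (-0.13). Rpl36a was the one of these with the smallest adjusted p, at 133, 150.4 and 98.9 CPM at day 3.5, against 186, 197 and 187 CPM at day 2.5 (-0.58 ± 0.12, adjusted p = 0.003). Many ribosomal protein genes have processed copies elsewhere that can share reads. With fly scaling none of these 3 lists held a called gene, while without the replicate 3 libraries 6 of each fell and 1 ribosome biogenesis gene rose.

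Some genes of both main routes of energy metabolism fell. Of 35 tested glycolysis and hypoxia-linked genes 12 fell and 1 rose, with a median of -0.31. Pfkl, the liver form of phosphofructokinase, was at 102, 76.3 and 96.9 CPM at day 3.5, against 141, 152 and 165 CPM at day 2.5 (-0.74 ± 0.11, adjusted p = 0.00039), and Ldha, lactate dehydrogenase, at 734, 629.8 and 683 CPM at day 3.5, against 943, 961 and 909 CPM at day 2.5 (-0.46 ± 0.08, adjusted p = 0.0012), both without overlap. Pgk1 fell by 0.46 (SE 0.09). The 1 that rose was the enolase gene Eno2 (1.12 ± 0.31). The largest fall among the ranked genes of the whole comparison was in Slc16a3, the lactate exporter MCT4, at 6.86, 3.00 and 9.38 CPM at day 3.5, against 10.6, 16.1 and 53.6 CPM at day 2.5. Its replicate 3 at day 2.5 stood far above the other libraries of the fit, and the days did not overlap (-2.08 ± 0.48, adjusted p = 0.0081). Without that library it was at -1.09 with an adjusted p of 0.058. Of 76 nuclear genes of oxidative phosphorylation 14 fell and none rose, with a median of -0.11, such as Atp5k, a subunit of ATP synthase (-0.63 ± 0.12). The glycolysis count was 7 lower and 1 higher without the replicate 3 libraries and 5 lower and none higher with fly scaling; the oxidative count was 10 and 1 lower.

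More than 20 lysosomal genes rose. Ctsd, the protease cathepsin D, was at 118, 104 and 126 CPM at day 3.5, against 68.5, 75.2 and 70.9 CPM at day 2.5 (0.70 ± 0.10, adjusted p = 0.00014), and Gaa, which breaks down glycogen in lysosomes, at 113, 94.0 and 104 CPM at day 3.5, against 59.4, 70.4 and 66.5 CPM at day 2.5 (0.66 ± 0.08, adjusted p = 6.6e-05). Laptm5, a lysosomal membrane protein of blood cells, was at 1006, 956 and 1136 CPM at day 3.5, against 652, 699 and 708 CPM at day 2.5 (0.59 ± 0.09, adjusted p = 0.00024), and Gusb, beta-glucuronidase, at 134, 122 and 129.8 CPM at day 3.5, against 91.0, 76.4 and 88.7 CPM at day 2.5 (0.59 ± 0.07, adjusted p = 6.6e-05). In each the later libraries all lay above the earlier ones. Of 39 tested members 22 rose and none fell, and the median was 0.40. Tfeb (0.07) and Tfe3 (0.10), the factors that drive lysosomal genes, were not called. Without the replicate 3 libraries 14 rose. With fly scaling none was called, although the median of 0.13 stood above the -0.25 of all genes.

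TFEB and TFE3 bind an E-box in the promoters of many lysosomal genes. The letters TCACGTG, searched on both strands in RefSeq windows of 300 bases (250 before the start and 50 after, build GRCm38.p6), were in 10 of the 30 tested lysosome genes with a window (33.3%), against 4.29% of 27025 genes and 3.77% of 32851 windows. Of the 10 with the letters 7 rose (median 0.44), and of the 20 without them 9 rose (median 0.38). The stretches below show the letters in capitals with up to 20 bases on each side, for the lysosome genes with the smallest adjusted p that carry them upstream of the gene as the deposited table places it; Gaa rose and Gla, alpha-galactosidase A (0.20 ± 0.20), was not called. They lie at chr11:119267802-119267848, plus strand, and at chrX:134601173-134601220, minus strand.
Gaa: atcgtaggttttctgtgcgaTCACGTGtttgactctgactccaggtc
Gla: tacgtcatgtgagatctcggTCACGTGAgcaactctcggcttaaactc

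In the secretory pathway a few genes rose and the main chaperones did not. Of 40 tested genes of ER folding and the unfolded protein response 8 rose and none fell, with a median of 0.06, and of 53 transport genes 5 rose and none fell (0.11), a share near that of all genes. Edem1 was at 473, 470.3 and 536 CPM at day 3.5, against 284, 301 and 311 CPM at day 2.5 (0.72 ± 0.09, adjusted p = 6.4e-05), and Txndc5, a disulfide isomerase, at 330.4 ± 16.1 CPM at day 3.5, against 221.1 ± 7.06 CPM at day 2.5 (SD, n = 3 each) (0.58 ± 0.10, adjusted p = 0.0012), both without overlap. The chaperone genes Hspa5 (-0.17) and Hsp90b1 (-0.04), the most familiar targets of this response, were not called. Ssr4, of the translocon, rose by 0.37 ± 0.07. With fly scaling none of either list was called, and without the replicate 3 libraries 6 and 3 rose.

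The ER stress response element, here CCAAT, any 9 bases and CCACG on either strand, was in the windows of 9 of 32 ER genes (28.1%), against 0.137% of 27025 genes. None of these 9 was called (median -0.04), and of the 23 without the letters 6 rose (median 0.17). Carriers chosen in the same way are shown because none of them was called: Canx, calnexin (-0.17 ± 0.07), Dnajc3, a co-chaperone (-0.11 ± 0.07), and Derl3, of ER-associated degradation (0.22 ± 0.15). Capitals mark the element, which in Derl3 lies on the opposite strand. The stretches are chr11:50325780-50325838, minus strand, chr14:118937807-118937865, plus strand, and chr10:75893222-75893280, plus strand.
Canx: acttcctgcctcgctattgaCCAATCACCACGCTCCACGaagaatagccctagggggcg
Dnajc3: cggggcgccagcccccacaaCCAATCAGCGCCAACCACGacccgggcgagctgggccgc
Derl3: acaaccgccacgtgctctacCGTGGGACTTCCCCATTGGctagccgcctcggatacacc

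Some interferon-stimulated genes fell and none rose. Dhx58, the RNA helicase LGP2, was at 31.3, 29.3 and 28.8 CPM at day 3.5, against 48.4, 44.6 and 42.9 CPM at day 2.5, without overlap (-0.60 ± 0.10, adjusted p = 0.00087). Ddx58, the sensor RIG-I, was at 31.0, 38.5 and 34.0 CPM at day 3.5, against 45.0, 49.5 and 46.1 CPM at day 2.5 (-0.44 ± 0.09, adjusted p = 0.0044), and Ifih1, the sensor MDA5, at 43.8, 46.2 and 41.8 CPM at day 3.5, against 67.8, 69.1 and 50.9 CPM at day 2.5 (-0.51 ± 0.12, adjusted p = 0.0067). Ifi203, of the PYHIN family, fell by 0.40 (SE 0.09). Of 37 tested members 12 fell and none rose, and the median was -0.40. The largest negative fold changes, in Ifit3 (-1.28 ± 0.99) and Rsad2 (-1.12 ± 0.66), did not pass the test. Without the replicate 3 libraries 10 fell, and with fly scaling 7 did. In Isg15, Oasl2 and Cmpk2, which fell, replicate 3 at day 2.5 was the lowest of its day, as for Isg15 at 19.9, 19.97 and 18.1 CPM at day 3.5, against 34.3, 36.2 and 22.7 CPM at day 2.5.

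Interferon acts through the response element, GAAA, any 2 bases and GAAA, in many of these promoters. The letters were in the windows of 15 of 27 tested members (55.6%), against 3.99% of 27025 genes. Of the 15 with them 6 fell (median -0.44), and of the 12 without them 4 fell (median -0.38). Chosen as for the lysosome genes, the stretches below have capitals that mark the letters on either strand, with overlapping copies run together, in Isg15, a ubiquitin-like protein (-0.68 ± 0.18), Gbp3, a guanylate-binding protein (-0.25 ± 0.08), and Trim30a (-0.46 ± 0.14), all of which fell. They lie at chr4:156200855-156200916, minus strand, at chr3:142559979-142560034, plus strand, and at chr7:104465200-104465249, minus strand. Matches of letters are a description of the sequence and do not show binding.
Isg15: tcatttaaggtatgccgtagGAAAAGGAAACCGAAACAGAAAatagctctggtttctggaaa
Gbp3: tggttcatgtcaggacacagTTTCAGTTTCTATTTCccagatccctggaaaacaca
Trim30a: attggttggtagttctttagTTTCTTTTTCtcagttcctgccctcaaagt

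**Figure D4:**
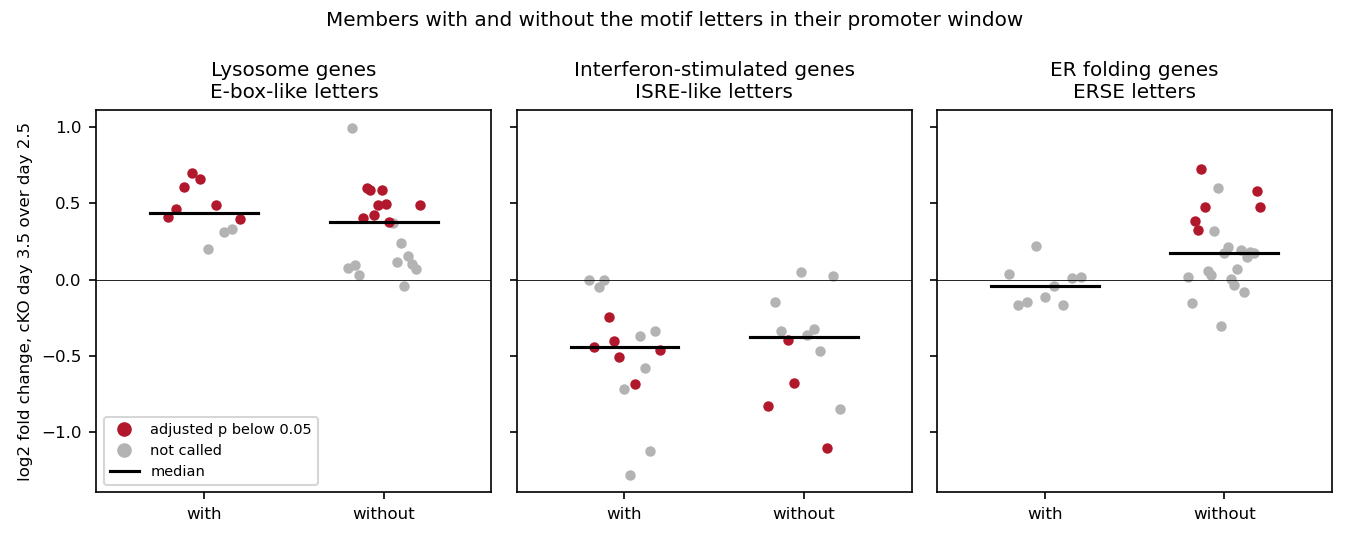
Log2 fold changes in cKO cells (day 3.5 over day 2.5, vertical axis) of the genes of 3 lists, split by whether the promoter window holds the motif letters; red points passed the test and bars are medians. With and without the letters the medians are 0.44 and 0.38 for lysosome genes, -0.44 and -0.38 for interferon-stimulated genes, and -0.04 and 0.17 for ER folding genes.

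In the repair and elongation machinery around ELOF1 single genes changed. Of 21 end joining and break signalling genes, 2 fell, Xrcc6 (-0.52 ± 0.09, adjusted p = 0.001) and Xrcc5 (-0.43 ± 0.11), which encode the Ku heterodimer. Xrcc6 was at 41.3, 43.4 and 38.7 CPM at day 3.5, against 63.0, 58.5 and 55.2 CPM at day 2.5. Of 23 genes of transcription-coupled repair Ercc5, the XPG nuclease, rose (0.59 ± 0.14) and Usp7, a deubiquitinase, fell (-0.26 ± 0.07). Of 33 elongation factors of RNA polymerase II Ell2 rose, and Larp7 (-0.34 ± 0.09), Paf1 (-0.29 ± 0.08) and Supt16 (-0.29 ± 0.08) fell. Over all genes 8.57% were called higher and 4.49% lower, and with fly scaling none of these 3 lists held a call.

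Among calls without overlap between the days and with an average of 1 or more on the log2 CPM scale, the largest rises were in Scn3a, a neuronal sodium channel subunit, Fosb, Fos, Jchain, Dok2, Klf4, Dnah12, Fam20c, Cdkn1a and Phlda3. Scn3a was at 10.6, 10.8 and 13.8 CPM at day 3.5, against 1.67, 0.715 and 2.80 CPM at day 2.5 (2.74 ± 0.33, adjusted p = 4.1e-05). Dok2, an adaptor that dampens tyrosine kinase signals, was at 39.3, 35.8 and 49.8 CPM at day 3.5, against 7.50, 8.98 and 10.1 CPM at day 2.5 (2.22 ± 0.16, adjusted p = 3.1e-07). Fam20c, a kinase of secreted proteins, was at 17.1, 11.4 and 19.98 CPM at day 3.5, against 4.44, 2.94 and 4.23 CPM at day 2.5 (2.06 ± 0.22, adjusted p = 1.0e-05). Klf4, a zinc finger factor, rose by 2.10 ± 0.39 and Dnah12, an axonemal dynein chain, by 2.10 ± 0.40.

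The largest falls by the same ranking were in genes at low CPM. After Slc16a3 came Trim30c (-1.85 ± 0.35), Gfi1b, a repressor of the blood lineages (-1.74 ± 0.36), Tns1, a tensin of focal adhesions (-1.53 ± 0.36), and Ifi206, of the PYHIN family (-1.48 ± 0.28). Next were Zfp831 (-1.42 ± 0.22), Ppp1r3b, which targets a phosphatase to glycogen (-1.35 ± 0.37), and Cdh17, a cadherin that B cells can carry (-1.27 ± 0.21). Cpm, carboxypeptidase M (-1.26 ± 0.21), and Car2, carbonic anhydrase (-1.25 ± 0.23), closed the 10. Without replicate 3 of day 2.5 Ppp1r3b was at -0.83 (adjusted p = 0.15). Zfp831 was at 4.55, 3.16 and 5.17 CPM at day 3.5, against 10.7, 9.70 and 13.9 CPM at day 2.5, and Cdh17 at 3.35, 4.89 and 3.68 CPM at day 3.5, against 9.25, 10.5 and 9.07 CPM at day 2.5. Apart from Slc16a3, no library of these 10 genes was above 19.3 CPM (Cpm, replicate 3 at day 2.5).

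WT cells made the same day's step in most of these genes. In WT cells 2005 genes were called (15.6%), 1183 higher (9.21%) and 822 lower (6.4%). Of the genes called in cKO and in WT cells 1063 were shared, out of 1678 and 2005, and 1061 of them went the same way. Of the 1678 cKO calls 1621 (96.6%) had the same sign in WT cells, and across genes, which are not independent replicates, Pearson's r of the fold changes was 0.64. Cdkn1a had a log2 fold change of 2.06 in cKO and 2.04 in WT cells, Cd28 4.16 and 3.47, Jchain 2.50 and 1.91, Hist1h1a -0.86 and -0.67, and Ctsd 0.70 and 0.66. Several lists had similar counts in both. The plasma cell genes had 11 rises and no fall in WT cells with a median of 0.43, the p53 targets 14 and none (0.46), the lysosome 19 rises and 1 fall (0.32), and the histones 1 rise and 43 falls (-0.49). In other lists the counts stood apart. The ribosomal protein genes had 15 falls in cKO cells, against 2 rises and 3 falls in WT cells. None was called in the same direction in both, and Rps27 was called in both in opposite directions. The ATF4 response had 3 rises and 3 falls in cKO cells, against 9 rises and no fall in WT cells, and the aminoacyl-tRNA synthetases had 7 falls in cKO cells, against 3 in WT cells. In the test of the difference described next, no member of these 3 lists was called.

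**Figure D5:**
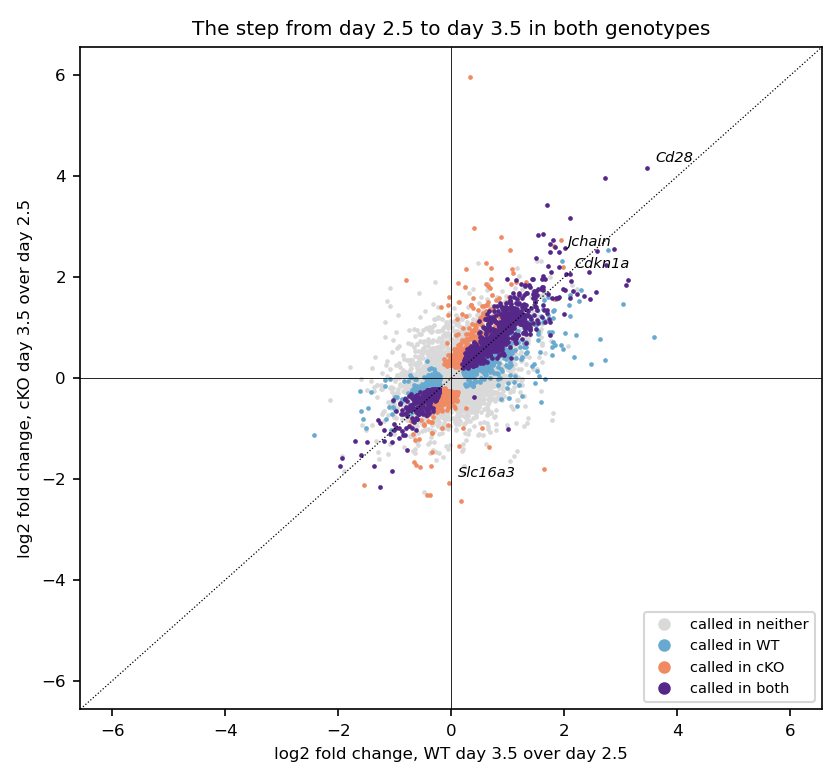
Each point is 1 of the 12851 tested genes, with its log2 fold change of day 3.5 over day 2.5 in cKO cells on the vertical axis and in WT cells on the horizontal axis; colours give in which genotype it passed the test, and the dotted line marks equal change. Of the 1063 genes called in both, 1061 lie in the quadrants of equal direction, the highest point is P2rx5, which was at 0 CPM in all 3 cKO libraries of day 2.5, and Slc16a3 lies at -2.08 in cKO and -0.03 in WT cells.

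Among the 12851 genes that passed the filter on low counts, edgeR called none in the test of whether the step differed between cKO and WT cells. In that test 709 genes had an unadjusted p under 0.05 (5.52%), and the smallest adjusted p was 0.82. By DESeq2 2 genes passed, Tmsb10 and Rps27, which also had the smallest p-values by edgeR. Tmsb10, an actin-binding thymosin, was at 167, 192 and 142 CPM at day 3.5, against 231.1, 240.2 and 287 CPM at day 2.5 in cKO cells (-0.60 ± 0.12) and at 174, 207.8 and 168 CPM at day 3.5, against 180.0, 141 and 138 CPM at day 2.5 in WT cells (0.26). Rps27, of the small ribosomal subunit, had -0.38 in cKO and 0.40 in WT cells. Mindy3, Cldnd1 and Pim2 came next, each with an adjusted p of 0.82 for the difference. The median SE of the difference was 0.18 on the log2 scale. Of the 87 ribosomal protein genes, 22 had an unadjusted p under 0.05 for the difference and none was called, and 12 of 37 interferon-stimulated genes fell in cKO cells and 5 in WT cells without a called difference in any. Slc16a3 was at 18.7, 9.03 and 18.6 CPM at day 3.5, against 19.5, 11.6 and 16.1 CPM at day 2.5 in WT cells, and its difference of -2.04 ± 0.67 did not pass by edgeR (adjusted p = 0.84), but with fly scaling it and Ak4 did. Without the filter on low counts edgeR called the difference in 50 genes, among them Slc16a3, Ak4, Jchain, Ighg2b, Rpl36a, Tmsb10, Rps27 and Pim2.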

How the data were processed

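The deposited table holds whole-number counts of reads per mouse and fly gene, made by the authors with Bowtie2 and featureCounts on builds mm10 and dm6, per the submitters' processing notes. Not given in the sources used here were versions, the counting strand and the handling of reads with several matches. Per the labels' protocols, total RNA was freed of ribosomal RNA and made into strand-specific libraries.

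Mouse counts of the 12 libraries (10160465 to 14967558 each) were filtered with filterByExpr (minimum count 10), scaled by TMM and tested in edgeR 4.0.16 with the quasi-likelihood test (limma 3.58.1, R 4.3.3) in 1 fit with 4 groups, with Benjamini-Hochberg adjustment over 12851 genes. The fit was tested on simulated counts with the same dispersion for all genes, which does not copy the spread between the real replicates. The SE given with a fold change is its absolute log2 value divided by the square root of the quasi-likelihood F statistic. A median tested gene had 260 to 323 counts in the 6 cKO libraries. Alternatives were DESeq2 1.42.0, its size factors, fly scaling, no filter, other sets of libraries and a replicate block. 2 ratios were tested by exact permutation. The chi-square comparison of replicates found no pair within sampling noise. Promoter windows came from RefSeq.

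Named genes are a fixed set, the 10 largest rises and falls among calls without overlap and averaging 1 or more on the log2 CPM scale, up to 4 calls with the smallest adjusted p per list, and 5 genes for the difference. The markers Cd22, Cd79a and Cd79b come from the cell type markers, and the genes shown with promoter sequence were taken by adjusted p, up to 3 a list, among carriers with the letters before the RefSeq start and outside the gene as the deposited table places it. Genes outside these (Trp53inp1, Ccng1, Mdm2, Cd37, Pou2af1, Ighg2c, Igha, Eno2, Odc1, H1f0, Icosl, Ezh2, Oasl2, Cmpk2, Ifit3, Rsad2, Tfeb, Tfe3, Hspa5, Hsp90b1, Ak4, Cxcr4, Psat1, Shmt2) were chosen after their values were seen. The members and gene lists were chosen with earlier results of these data known. A few genes of these lists are not reported here.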

Additional observations from a re-analysis of the deposited data

How the results depend on the processing

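The number of calls moved most with the libraries in the fit and with the scaling. With all 16 spleen libraries and a term for the series of library numbers, the cKO step had 455 calls, 363 higher and 92 lower, and the WT step 729. With fly scaling the cKO step had 272, 161 higher and 111 lower, and the WT step 257. Without both cKO replicate 3 libraries, a setting chosen after seeing the data, the cKO step had 1087 calls, 658 of them higher. Leaving out 1 library at a time gave 995 to 1685 calls in the cKO step, 679 to 1008 higher and 315 to 710 lower, and 1166 to 1654 in the WT step. DESeq2, its size factors, no filter and a fit of only the compared groups gave cKO counts between 1472 and 1894. The cause of these changes was not tested.

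For the difference between genotypes edgeR called 0 genes (709 at an unadjusted p under 0.05), DESeq2 2, fly scaling 2, and the fit without a filter on low counts 50. Leaving out 1 library gave 0 to 6, with 6 without replicate 2 of WT day 3.5 and 3 without replicate 2 of cKO day 3.5. The fly to mouse log2 ratio ranged from 0.13 to 0.46 without 1 library, and that of Ighg1 to Ighm from 0.29 to 0.34.

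The replicate block gave 1840 calls in the cKO step, 2174 in the WT step and 2 for the difference, Slpi and Mir7678. Both ratios kept their values, with exact p of 0.5 for fly to mouse and 0.25 for Ighg1 to Ighm. With libraries paired by number, 0.25 is the smallest p that this exact 2-sided test allows. The numbers share no stated mouse or day. Deviations of same-numbered cKO libraries correlated at 0.15, -0.03 and 0.25, and not every library correlated best with its own number; those of WT libraries correlated at 0.191, 0.196 and 0.191, each best with its own.

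Of the 128 called genes named here, 60 stayed past the threshold with all 16 libraries, 53 with fly scaling, 98 without both replicate 3 libraries and 127 with the block. Leaving out 1 library kept 96 to 118 of them. Besides those given with the results, the calls of Ccng2, Cd37, Cmpk2, Cxcr4, Eno2, Ezh2, Ftl1, Gbp3, Gm26035, Larp7, Mthfd2, Odc1, Pecam1, Pou2af1, Ppp1r3b, Psat1, Psmb8, Rps27, Smad3, Tsc22d3 and Txn1 were lost in at least 4 of the 6 omissions. Signs turned for called genes only with fly scaling, in Cd37 (-0.0271) and Pou2af1 (-0.00833). Among genes not called, fly scaling turned Derl3 (-0.0295), Elof1 (-0.11), Gla (-0.072), Mdm2 (-0.0151), Mindy3 (-0.0502), Tfe3 (-0.18) and Tfeb (-0.22). The fit with 16 libraries turned Ighg2c (-0.27) and Tfeb (-0.00193), and the one without replicate 3 turned Tfe3 (-0.034) and Tfeb (-0.00575). Leaving out 1 library gave -0.0843 to 0.021 for Cd79a, -0.123 to 0.0731 for Cd79b, -0.0768 to 0.308 for Elof1 and -0.0106 to 0.168 for Tfeb.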

Other observations

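In other lists smaller numbers of genes were called in the cKO cells, where 13.1% of all genes were called, 8.57% higher and 4.49% lower. Of 19 migration and egress receptors 5 rose and 1 fell. Cxcr4, the receptor for CXCL12, was at 52.3, 55.5 and 57.8 CPM at day 3.5, against 37.8, 41.2 and 46.6 CPM at day 2.5 (0.40 ± 0.12, adjusted p = 0.035). Of 20 cell cycle inhibitors and quiescence genes 4 rose, among them Ccng2 (0.54 ± 0.15), Foxo3 (0.34 ± 0.09) and Tsc22d3, the glucocorticoid-induced GILZ (0.64 ± 0.21), which without replicate 1 of day 3.5 was at 0.37 (adjusted p = 0.3). Of 22 NRF2 genes 2 rose, Hmox1, heme oxygenase (1.26 ± 0.17), and Ftl1, ferritin light chain (0.36 ± 0.10), and 2 fell, Txn1 (-0.29 ± 0.09) and Gstm1 (-0.91 ± 0.24). Of 32 genes of the ATF4 response 3 rose and 3 fell, the falls being Psat1 (-0.32 ± 0.10), Shmt2 (-0.29 ± 0.08) and Mthfd2 (-0.40 ± 0.11), enzymes of serine and one-carbon metabolism. Of 20 TGF-beta pathway genes 2 rose, Tgfbr2 (0.45 ± 0.10) and Smad3 (0.36 ± 0.10). Both called genes of 20 in the MHC class I list fell, Psmb8 (-0.28 ± 0.09) and Psmb10 (-0.29 ± 0.08), subunits of the immunoproteasome. With fly scaling 1 quiescence gene, and 1 NRF2 gene in each direction, were called, and none of the ATF4, migration, TGF-beta and MHC class I lists.

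The share of genes called higher grew with the genomic span of the gene. It was 13.3% of 639 genes of 150 kb or more, with a median log2 fold change of 0.09, and 7.93% of 4349 genes under 10 kb, with a median of -0.01. In WT cells the medians of these classes were 0.13 and -0.01. Of the same 2 classes in cKO cells, 3.91% and 5.27% were called lower. With fly scaling their medians were -0.17 and -0.27, against -0.25 for all genes.

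2 further cKO libraries of day 2.5, replicates 4 and 5, belong to another series of library numbers, without libraries of day 3.5. Scaled over all 16 spleen libraries, their Elof1 was at 4.07 and 1.27 CPM. Prdm1 was at 76.2 and 53.2 CPM, above the 38.2, 48.4 and 49.4 CPM of day 3.5. Ighe was at 72.6 and 17.4 CPM, against 62.5, 74.6 and 80.5 CPM at day 3.5. Pax5 was at 399.7 and 193.5 CPM, against 243.7, 257.3 and 290 CPM at day 3.5. In Pax5, Fcrl5, Zbtb32 and Hist1h2bg replicate 5 lay below all later libraries and replicate 4 above them. The same held for Ercc5, Cd86 and Smad3, which rose in the main comparison, so that their replicate 4 went against that rise. Jchain, at 87.0 and 107 CPM, lay below its later 167, 174 and 319 CPM. Slc16a3 was at 187.1 and 35.8 CPM, against 6.84, 2.99 and 9.35 CPM at day 3.5. Its replicate 3 of day 2.5 was at 53.4 CPM on this scale. Pax5 and the genes after it were chosen with their values seen.

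In 2 genes both steps passed the test in opposite directions, Rps27 and the predicted gene Gm26035, named after their values were seen. Gm26035 had a log2 fold change of -1.004 in cKO and 1.005 in WT cells, and the difference did not pass edgeR's test in either gene (adjusted p = 0.82 each). It was called in Rps27 by DESeq2, and in both by edgeR without the filter on low counts. P2rx5, a purine-gated channel also named after its values were seen, was at 1.11, 0.395 and 0.438 CPM at day 3.5, against 0, 0 and 0 CPM at day 2.5 in cKO cells (adjusted p = 0.021), and no fold is given because the earlier libraries were at 0.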
